A study of Mus musculus with 4 samples.

Results

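Glul-high spots are the spots of mouse liver sections in which RNA of glutamine synthetase, the enzyme that joins ammonia to glutamate, took the largest share of the unique molecular identifiers (UMIs, each a captured RNA molecule) among spots rich in Cyp2e1. Spots with at least 500 UMIs were ranked by their Cyp2e1 share within each section, and the highest of 3 equal classes was kept. Within that class the 20% of spots with the highest Glul share were called Glul-high, the 50% with the lowest Glul-low and the spots between them Glul-middle. The other 2 classes of a section are called outer spots here. The members were thus chosen by their measured Glul and Cyp2e1 shares. By this rule 552 of 8246 spots were Glul-high: 136 in MAFL-1, 126 in MAFL-2, 165 in MASH-1 and 125 in MASH-2. There were 1373 Glul-low, 825 Glul-middle and 5496 outer spots.

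The sections are 10x Visium captures of snap-frozen mouse liver, in which a spot takes up the RNA of several neighbouring cells. MAFL-1 and MAFL-2 carry the label of the MAFL model after 8 weeks on a diet written as WD, and MASH-1 and MASH-2 that of the MASH model after 16 weeks. All 4 sections share the diet and differ between groups in model and weeks at the same time, so these cannot be told apart. Strain, genotype, sex and age are not given in the sources used here, and no label tells separate animals from repeated sections of one, so p-values measure only the spread between these sections, which may be technical. Fewer cells of a type in a spot and less RNA per cell cannot be told apart in such data.

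Hepatocytes differ along the axis from the portal tract to the central vein. In healthy liver a narrow ring of hepatocytes next to the central vein makes glutamine synthetase and clears the ammonia that the urea cycle upstream has left. Wnt ligands and the R-spondin Rspo3 from the endothelium of the central vein keep β-catenin active in these cells, and Glul, Slc1a2, Oat, Lgr5, Rhbg, Axin2 and Tbx3 are known targets or markers of that ring. Cyp2e1 covers a wider pericentral belt, so the comparison of Glul-high with Glul-low spots lies inside that belt. Spot positions were not analysed here, so the name rests on genes alone and no distance to a vein was measured.

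Of the marker genes, Rhbg and Lgr5 had no promoter in the RefSeq table used here. The promoters of Glul, Slc1a2 and Oat are shown to set the gene that chose the spots beside genes that followed it. Each is the 250 bases before the transcription start in RefSeq on GRCm38.p6, written 5′ to 3′ along the gene, with capitals at each CTTTGA or its reverse complement TCAAAG, the core of the motif of the Tcf/Lef factors through which β-catenin acts. The Glul promoter is at chr1:153899679-153899928 on the plus strand, that of Slc1a2 at chr2:102706188-102706437 on the plus strand and that of Oat at chr7:132576399-132576648 on the minus strand.
Glul: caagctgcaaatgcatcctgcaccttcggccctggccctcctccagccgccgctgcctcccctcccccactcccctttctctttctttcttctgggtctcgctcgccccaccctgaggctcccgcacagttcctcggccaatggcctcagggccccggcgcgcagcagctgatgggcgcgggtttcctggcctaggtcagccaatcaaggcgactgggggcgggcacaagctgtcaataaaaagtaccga
Slc1a2: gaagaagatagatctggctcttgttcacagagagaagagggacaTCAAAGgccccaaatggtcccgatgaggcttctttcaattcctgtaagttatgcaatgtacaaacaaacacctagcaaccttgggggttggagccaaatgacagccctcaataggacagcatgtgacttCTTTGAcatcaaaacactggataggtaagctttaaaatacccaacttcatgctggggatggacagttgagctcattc
Oat: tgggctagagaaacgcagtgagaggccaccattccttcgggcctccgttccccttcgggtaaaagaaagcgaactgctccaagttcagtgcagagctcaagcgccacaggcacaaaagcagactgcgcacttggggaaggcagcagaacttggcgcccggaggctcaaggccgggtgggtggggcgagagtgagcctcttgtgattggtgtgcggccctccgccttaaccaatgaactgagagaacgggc
Slc1a2 held the core once on each strand, starting 206 and 77 bases before the start, and these windows of Glul and Oat held none. Of 32851 promoters of this length in the RefSeq table, 4544 (13.8%) held the core on either strand. Among the 12 genes with the highest increase in Glul-high spots, 8 had a promoter in the table and 2 of these, Slc1a2 and Cyp1a2, held it. None of the 15 promoters of the 12 genes with the largest decrease did. A match is a description of letters and not a binding site, and its absence says only that these letters are not in this window.

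The Glul level, which chose the spots, is given as a description. Levels are given as CPM, the per-million share of a gene among all UMIs of the summed spots of a class, and 4 values in a row follow the order of both MAFL sections, then both MASH sections, by number. Glul stood at 987, 1280, 1714 and 2131 CPM in Glul-high spots, at 94.1, 149.8, 169.2 and 216 in Glul-low spots and at 92.4, 159.2, 182.0 and 163.2 in outer spots. Glul-high spots were 6.68% to 6.71% of a section's spots and held 32.5%, 28.5%, 27.7% and 30.3% of its Glul UMIs. Their median Glul UMI count per spot was 12, 18.5, 30 and 28. The cut was not at a gap in the values: the lowest Glul-high spot had 522, 742, 1137 and 1358 CPM and the highest Glul-middle spot 518, 740, 1132 and 1341. Outside the Cyp2e1-rich class, 8, 32, 89 and 32 spots passed the Glul threshold of their section and were counted as outer.

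Glul-high and Glul-low spots differed little in Cyp2e1, by which both were chosen, and more in depth. The median Cyp2e1 level of a spot was 7065, 9308, 10850 and 11510 CPM in Glul-high spots against 6569, 9119, 10820 and 10570 in Glul-low spots. Glul-high spots held fewer UMIs in each section, with medians of 12310, 16200, 17650 and 13950 against 16680, 19130, 24930 and 17180. The summed counts came to 1735146 to 2959399 UMIs per section for Glul-high spots and to 5897945 to 10382373 for Glul-low spots. When Glul was instead ranked within 5 bins of total UMIs, the increase of Slc1a2 was 2.68 on the log2 scale in place of 3.04, and that of Rhbg 2.51 in place of 2.90. Between 1180 and 1723 barcodes recur between any pair of sections, which share the barcode set of the slide type.

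Slc1a2, Vwf, Rhbg and Slc13a3 had the highest increases among the genes that the naming rule admits, and Igfbp2 and Ass1 the largest decreases. Of 10223 genes tested without Glul and Cyp2e1, 692 differed between Glul-high and Glul-low spots (6.77%), 349 higher (3.41%) and 343 lower (3.36%), by edgeR's quasi-likelihood test with the section as a block and a Benjamini-Hochberg adjusted p under 0.05. The median log2 fold change of all tested genes was 0.0042. Under library totals without TMM scaling the split was 463 higher and 230 lower of 693, and without MASH-1 the count was 406.

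Slc1a2 (ENSMUSG00000005089), the glutamate transporter GLT-1, had the highest increase. Its level was 36.4, 49.3, 40.4 and 33.1 CPM in Glul-low spots and 274, 313, 369 and 375 in Glul-high spots. Every Glul-high section lay far above every Glul-low section. The fitted increase was 3.04 ± 0.14 (log2, SE, n = 4 sections), or 8.22-fold, with an edgeR adjusted p of 0.000774. After thinning each spot to 5000 UMIs, which kept every Glul-high spot and left out 2 Glul-low spots of MAFL-2 and 1 of MASH-2, 72.1% to 84.8% of Glul-high spots had a Slc1a2 UMI. The share was 15.04% to 22.8% in Glul-low and 10.9% to 17.8% in outer spots. Without thinning the mean shares were 97.8% ± 1.6 in Glul-high and 49.2% ± 9.5 in Glul-low spots (SD, n = 4).

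Rhbg (ENSMUSG00000104445), an ammonia transporter of the Rhesus family, was at 4.21, 9.22, 8.57 and 3.22 CPM in Glul-low and 29.4, 57.9, 62.9 and 44.99 in Glul-high spots. The classes did not overlap, and the increase was 2.90 ± 0.13 (log2, SE) with an edgeR adjusted p of 3.81e-26. Slc13a3, a sodium-coupled carrier of dicarboxylates such as α-ketoglutarate, rose from 10.3, 13.7, 14.6 and 13.9 to 64.6, 71.3, 93.9 and 88.9 CPM. That is 2.58 ± 0.09 (log2, SE) with an edgeR adjusted p of 1.98e-30, and its 4 sections agreed closely in both classes. Slc1a4, a carrier of neutral amino acids, stood at only 1.68 to 2.37 CPM in Glul-low spots and at 6.42 to 7.49 in Glul-high spots, an increase of 1.65 ± 0.27 (log2, SE; edgeR adjusted p = 8.56e-06).

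Oat (ENSMUSG00000030934), ornithine aminotransferase, which turns ornithine into a precursor of glutamate and proline, also rose. Its level was 323, 477, 531 and 383 CPM in Glul-low and 814, 1443, 1980 and 1583 in Glul-high spots. The lowest Glul-high section was above the highest Glul-low section. The increase was 1.70 ± 0.15 (log2, SE) with an edgeR adjusted p of 0.0192, but this call depends on which sections are included. It was kept without MAFL-1 and lost without MAFL-2 (adjusted p = 0.113), MASH-1 (0.152) or MASH-2 (0.0828) in edgeR, at log2 changes of 1.74, 1.63 and 1.59.

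Of the 19 tested genes of glutamate, glutamine and ammonia handling, 5 rose and 2 fell (all tested genes: 3.41% and 3.36%). The median log2 change of the 19 was -0.04. Prodh, proline dehydrogenase, was the other gene that rose, by 0.32 ± 0.05 (log2, SE; edgeR adjusted p = 2.17e-06). Slc7a2, a carrier of cationic amino acids, fell by 0.32 and Slc38a4, an amino acid carrier, by 0.28 on the log2 scale. Glutamate dehydrogenase Glud1 (0.01), the liver-type glutaminase Gls2 (-0.11) and the transaminases Got2 (-0.07) and Gpt2 (-0.09) did not pass the test, with these log2 changes. The median of the list thus sits near that of all genes, but a larger share of its members was called. A few of its members lead the comparison.

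**Figure D1:**
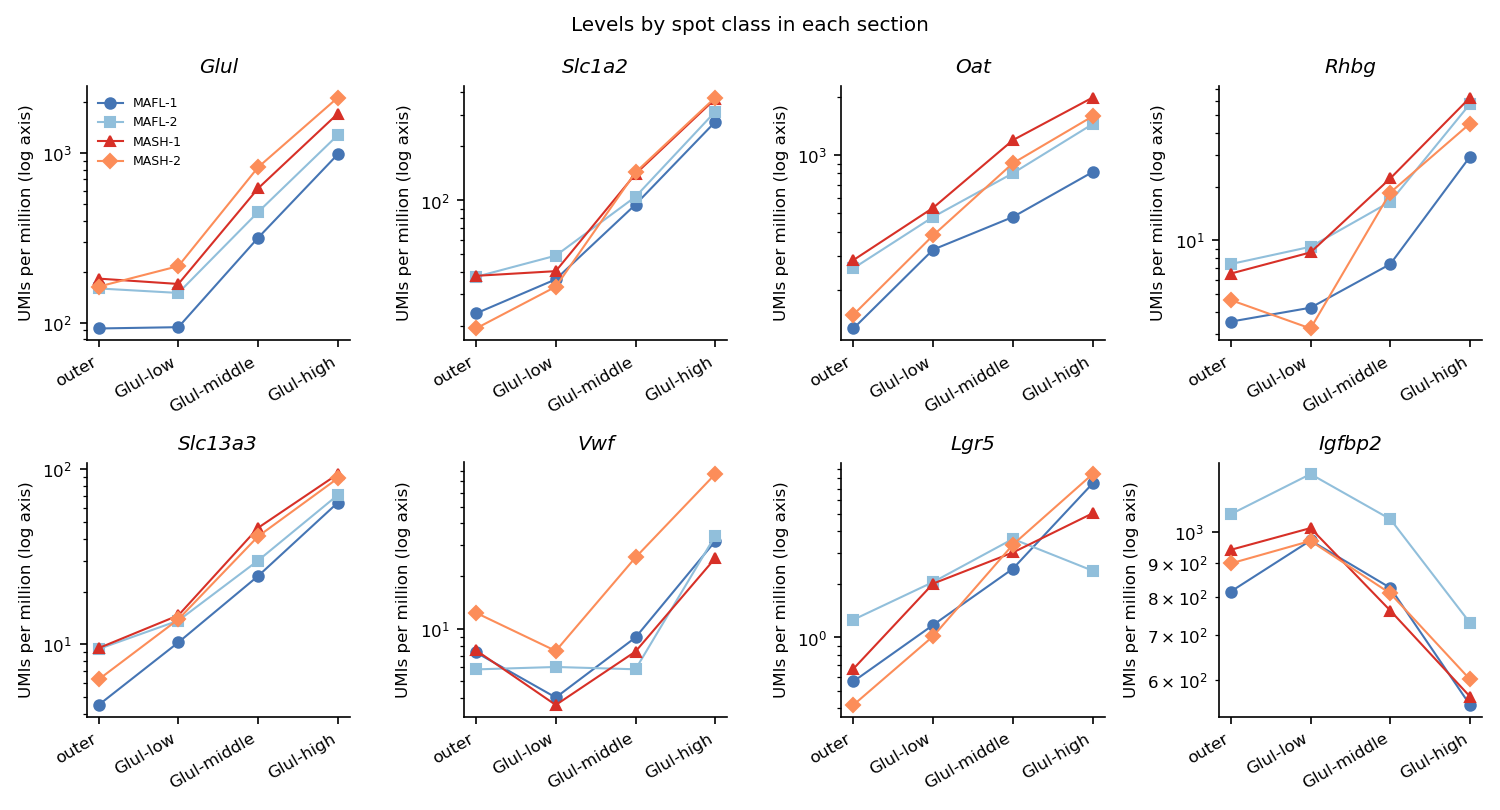
Level of 8 genes (CPM, log axis) in the 4 spot classes of each section, 1 line per section with MAFL in blue and MASH in red. Glul defined the classes within the Cyp2e1-rich spots and is shown as a description; Slc1a2, Rhbg and Slc13a3 rise from Glul-low to Glul-high spots in every section, Oat already rises from outer to Glul-low spots, Lgr5 is barely higher in MAFL-2, and Igfbp2 falls.

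Lgr5 (ENSMUSG00000020140), the R-spondin receptor, was scarce: 7, 13, 21 and 6 UMIs in all Glul-low spots of a section and 13, 5, 15 and 16 in all Glul-high spots. This is 1.18, 2.07, 2.02 and 1.02 against 7.49, 2.39, 5.07 and 8.47 CPM. Only MAFL-2 had classes at about the same level, and its Glul-high value rests on 5 UMIs. The increase was 1.74 ± 0.33 (log2, SE) with an edgeR adjusted p of 0.000113.

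Most of the tested targets of the Wnt pathway rose. Of 13 listed genes 10 passed the filter on low counts, with a median log2 change of 1.09 beside 0.0042 for all genes. Of these 10, 7 rose and none fell (all tested genes: 3.41% rose and 3.36% fell). A gene that is high in a single class can pass the filter through that class, so this count describes the genes tested. Sp5, a transcription factor induced by β-catenin, rose by 2.27 ± 0.24 (log2, SE; edgeR adjusted p = 9.53e-11). Its levels were 2.36, 2.86, 2.31 and 1.36 CPM in Glul-low and 8.07, 12.5, 10.1 and 14.3 in Glul-high spots. Axin2, a feedback inhibitor of the pathway, rose by 1.28 ± 0.28 (edgeR adjusted p = 0.0013) with 4 to 25 UMIs per section in Glul-low and 5 to 17 in Glul-high spots. Tbx3, a transcription factor of pericentral hepatocytes, rose by 1.04 ± 0.11 (edgeR adjusted p = 6.26e-11), from 14.1, 27.3, 24.95 and 13.9 to 29.97, 55.1, 42.9 and 45.5 CPM.

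Of the feedback genes of the pathway, Nkd1 rose by 1.23 and Notum by 0.46 on the log2 scale, and the receptor gene Tnfrsf19 by 1.146. These 3 calls are weaker: each was lost in edgeR without MASH-1 (adjusted p of 0.051 for Nkd1, 0.0519 for Notum and 0.2 for Tnfrsf19), and those of Nkd1 and Notum also without MASH-2 (0.193 and 0.0885). Rnf43 (0.37), Znrf3 (0.06) and Ccnd1 (-0.30) did not pass the test, with these log2 changes. Rnf43 and Znrf3 are ubiquitin ligases that remove Wnt receptors, and Ccnd1 encodes cyclin D1.

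Among ligands, Rspo3 rose and its level was highest in the MASH sections. It stood at 1.35, 2.86, 4.43 and 6.95 CPM in Glul-low and 10.95, 9.58, 19.6 and 29.1 in Glul-high spots, an increase of 2.10 ± 0.19 (log2, SE; edgeR adjusted p = 2.49e-13). Wnt2, a ligand of the sinusoidal and central vein endothelium, rose by 0.82 ± 0.24 (edgeR adjusted p = 0.0291) on 3 to 32 UMIs per section in Glul-high spots. In MAFL-2 it went the other way, at 4.45 CPM in Glul-low and 1.44 in Glul-high spots, and the call was lost in edgeR without MAFL-1, MASH-1 or MASH-2 (adjusted p of 0.0863, 0.325 and 0.385). Wls, which carries Wnt proteins to the surface, was 0.53 and Wnt4 0.68 higher on the log2 scale without passing the test. The other 5 ligands of the list, Wnt9b among them, had too few counts to test.

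Receptors and transducers of the pathway mostly did not differ: 1 of 15 rose, Lgr5, which is also among the Wnt targets, and 1 fell, the co-receptor Lrp6, with a median log2 change of 0.01. Lrp6 fell by 0.44 (edgeR adjusted p = 0.0188), and the call was lost without MAFL-2 (0.124) or MASH-1 (0.468). Ctnnb1, which encodes β-catenin, and Lgr4, another R-spondin receptor, had log2 changes of 0.12 and -0.15, and neither passed the test.

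Endothelial genes of the central vein rose with Glul. Of 12 listed genes 10 were tested, and 9 rose and none fell, with a median log2 change of 1.28. Of all tested genes 3.41% rose. As for the Wnt targets, a scarce gene can pass the filter through the Glul-high class alone, so this count describes the genes tested. Vwf, the clotting factor carrier made by the endothelium of larger vessels, was at 4.04, 6.04, 3.66 and 7.46 CPM in Glul-low and 31.7, 34.0, 25.3 and 76.7 in Glul-high spots. Each Glul-high value exceeds every Glul-low value, and the highest is that of MASH-2. The increase was 2.91 ± 0.14 (log2, SE) with an edgeR adjusted p of 2.63e-24. Fabp4, a fatty acid binding protein of vein endothelium and fat cells, rose by 1.34 ± 0.09 (edgeR adjusted p = 1e-17), from 13.1, 14.9, 27.2 and 47.6 to 43.2, 45.01, 75.02 and 98.4 CPM. The classes overlapped across groups, since Glul-low spots of MASH-2 were above Glul-high spots of both MAFL sections. Selp, P-selectin, rose by 2.24, the cadherin Cdh13 by 2.06, thrombomodulin Thbd by 1.22, the receptor Kit by 1.148 and cyclooxygenase-1 Ptgs1 by 0.57 on the log2 scale, beside Rspo3 and Wnt2.

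Some genes of the sinusoidal endothelium rose, and portal endothelium genes did not pass the test. Of 15 sinusoidal genes 7 rose (all tested genes: 3.41%), with a median log2 change of 0.31. Endoglin Eng rose by 0.85, Pecam1 by 0.79, Egfl7 by 0.72 and Ptprb by 0.71. Of 5 tested genes of portal endothelium none passed, and their median was -0.08. The summed level of the central vein list was 44.3 to 112 CPM in Glul-low and 139.8 to 317 in Glul-high spots, higher in 4 of 4 sections. That of the sinusoidal list (459 to 641 against 581 to 1009) was also higher in 4 of 4 sections. So was that of the portal list, by less (50.7 to 93.4 against 58.4 to 100). The part that vessel cells captured in the same spots have in the rest of the comparison was not tested.

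**Figure D2:**
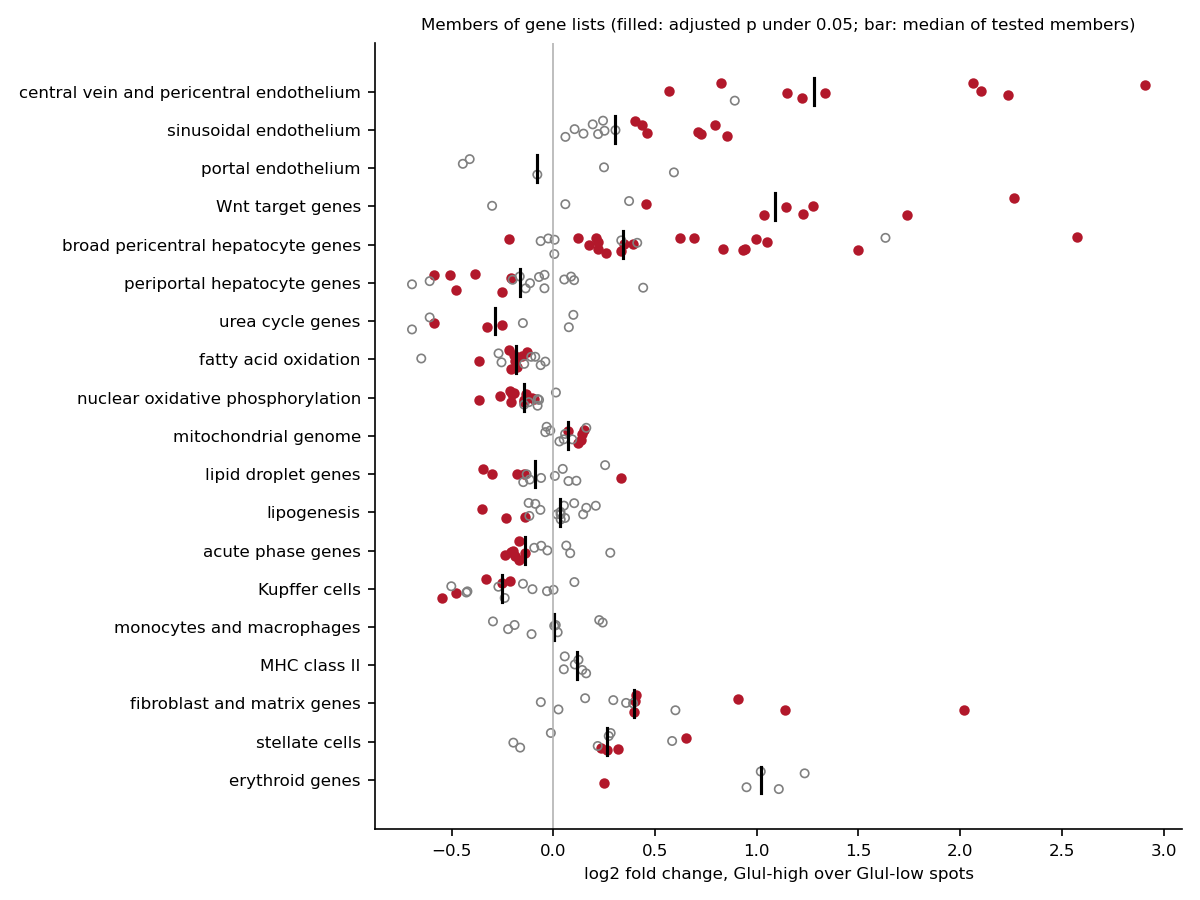
Log2 fold change (Glul-high over Glul-low spots) of the tested members of 19 gene lists, 1 point per gene, filled red where the adjusted p is under 0.05, with the list's median as a black bar. Central vein endothelium and Wnt targets have medians of 1.28 and 1.09, while fatty acid oxidation and nuclear oxidative phosphorylation lie slightly below 0 with medians of -0.18 and -0.14.

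Pericentral hepatocyte genes beyond the markers also rose, mostly by less. Of 26 listed genes 18 rose and 1 fell (all tested genes: 3.41% and 3.36%), with a median log2 change of 0.34. Lhpp, a phosphatase, rose by 1.498 ± 0.07 (edgeR adjusted p = 3.58e-18) from 57.4, 58.0, 75.0 and 47.3 to 130.2, 153.7, 228 and 170.4 CPM, with no overlap of the classes. Cyp1a2, a cytochrome that oxidises caffeine and other planar amines, rose by 1.05 ± 0.05 (edgeR adjusted p = 3.05e-13) from 126.5, 228, 220 and 128.9 to 296, 390.2, 503 and 288. Lect2, a hepatokine controlled by β-catenin, rose by 0.99, Cyp2c37 by 0.94 and Gulo, the last enzyme of vitamin C synthesis, by 0.93 on the log2 scale. Cyp2a5, a coumarin hydroxylase, had a log2 change of 1.63 ± 0.23 that did not pass the test (edgeR adjusted p = 0.061), although it was higher in 4 of 4 sections, at 75.2, 559, 983 and 510 against 460, 1768, 2458 and 1481 CPM.

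Other genes of the same belt did not follow Glul. Cyp3a11, the main drug-metabolising cytochrome of mouse liver, had a log2 change of 0.01 ± 0.03, its electron donor Por 0.00 ± 0.03 and Cyp27a1, an enzyme of bile acid synthesis, -0.02 ± 0.04. The fatty acid hydroxylase Cyp4a14 fell by 0.22 ± 0.03 (edgeR adjusted p = 5.90e-07).

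The remaining genes among the 12 highest were Ces2c, a carboxylesterase (1.52 ± 0.10), Rdh9, a retinol dehydrogenase (1.27 ± 0.13), Gstm2, a glutathione transferase (1.23 ± 0.08), and Ccdc85b, a coiled-coil protein (1.13 ± 0.09), as log2 changes ± SE. Each had an edgeR adjusted p of 1.8e-11 or less. Being higher in 4 of 4 sections was a condition of this naming. Of 12 glutathione transferases 5 rose and 2 fell (all tested genes: 3.41% and 3.36%). Beside Gstm2, Gstm3 rose by 0.84, Gstt1 by 0.20, Gsta3 by 0.19 and Gstm1 by 0.17 on the log2 scale. Mgst1 fell by 0.13 and Gstp1 by 0.50. The near-identical Gstm genes can share reads, and how the counting split them is not given in the sources used here.

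Genes lower in Glul-high spots changed by less than the leading increases. Igfbp2, a secreted binding protein of insulin-like growth factors, fell most: from 972, 1224, 1015 and 971 CPM in Glul-low to 549.8, 731, 566 and 601 in Glul-high spots. All Glul-high values lie below all Glul-low values, and the log2 change was -0.81 ± 0.03 (edgeR adjusted p = 5.15e-28). Ass1, the urea cycle enzyme argininosuccinate synthase, fell by 0.58 ± 0.04 on the log2 scale (edgeR adjusted p = 9.43e-19), from 390.4, 773, 458 and 868 to 267, 583, 288 and 575. The sections differ more from each other than the classes do, yet each section fell, as the naming rule requires. Pck1, the entry enzyme of gluconeogenesis, fell by 0.48 ± 0.03 (edgeR adjusted p = 9.43e-19), from 1321, 1426, 1281 and 1340 to 1041, 1047, 873 and 995, with no overlap.

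The other decreases among the 12 lowest were those of the complement protein C9 (-0.57), the lysoplasmalogenase Tmem86a (-0.57), Wfdc2 (-0.52), Amdhd1 of histidine breakdown (-0.52), the immunoglobulin receptor Pigr (-0.51), Gstp1 (-0.50), histamine methyltransferase Hnmt (-0.49), the macrophage receptor Marco (-0.48) and Apol9b (-0.48), as log2 changes. Marco lost its call without MASH-1, with a log2 change of -0.18 (edgeR adjusted p = 0.751), and Wfdc2 without MASH-2 (-0.37, 0.122). When Glul was ranked within bins of total UMIs, Gstp1 (-0.23) and Marco (-0.34) lost their calls, and the log2 change of Igfbp2 was -0.62.

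Some urea cycle and periportal genes fell. Of 8 urea cycle genes 3 fell, Ass1, Otc (-0.32) and Asl (-0.25), and none rose (all tested genes: 3.36% fell and 3.41% rose). Cps1, the enzyme that fixes ammonia for the cycle, and Arg1, arginase, had the largest log2 changes, -0.69 and -0.61, but did not pass the test (edgeR adjusted p of 0.0863 and 0.0994), and their decreases were unequal between the groups. Both were lower in 4 of 4 sections: Cps1 stood at 962, 1420, 966 and 765 CPM in Glul-low and at 672, 1039, 495.0 and 462 in Glul-high spots. Of 19 periportal genes 6 fell and none rose, with a median log2 change of -0.17. Cyp2f2 (-0.04), Sds (-0.07), Etnppl (-0.04) and Hal (0.10), which mark the portal end, did not pass the test. The members that fell were Ass1 and Asl of the urea cycle, Pck1 and Fbp1 of gluconeogenesis, the immunoglobulin receptor Pigr and Hsd17b13, a lipid droplet enzyme.

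RNA levels of nuclear-encoded genes of energy metabolism were slightly lower. Of 16 fatty acid oxidation genes 8 fell and none rose (all tested genes: 3.36% fell and 3.41% rose). The median log2 change of the list was -0.18, and the calls were led by the peroxisomal Ehhadh (-0.36) and the carnitine palmitoyltransferase Cpt1a (-0.21). Of 17 nuclear genes of oxidative phosphorylation 11 fell and none rose, with a median of -0.14, led by cytochrome c, Cycs (-0.36), and Cox5a (-0.26). Genes of the mitochondrial genome went the other way: 5 of 13 rose and none fell, with a median of 0.07. Of these, mt-Nd1, mt-Nd3 and mt-Nd5 lost their calls without MAFL-2 or MASH-1, and mt-Nd1 (0.07) and mt-Nd5 (0.0065) with Glul ranked within bins of total UMIs. With library totals in place of TMM, 8 of the 17 nuclear genes fell and 7 of the 13 mitochondrial ones rose, and the medians were -0.11 and 0.11.

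Changes of lipid genes were small, beside 3.36% lower and 3.41% higher among all tested genes. Of 14 lipid droplet genes 4 fell, G0s2 (-0.30), Cidec (-0.34), Cideb (-0.18) and Plin2 (-0.15), and Fitm1 rose by 0.33 on the log2 scale. Of 17 lipogenic genes Srebf1 (-0.35), Scd1 (-0.23) and Elovl5 (-0.14) fell and none rose, and none of 13 genes of cholesterol synthesis and uptake passed the test. Elovl5 lost its call without MASH-1 (-0.07, edgeR adjusted p = 0.601), and Cidec, Plin2 and Srebf1 lost theirs within bins of total UMIs (0.0674, 0.179 and 0.0569). Of 15 bile acid genes, Cyp7a1 and the uptake carrier Slco1b2 rose (0.33 and 0.21) and Baat and Cyp8b1 fell (-0.23 and -0.22). Cyp7a1 lost its call without MAFL-1 (edgeR adjusted p = 0.112) or MASH-2 (0.16, 0.202), and Baat without MASH-1 (-0.16, 0.129) and within bins of total UMIs (-0.14, 0.0526). Of 13 acute phase genes 7 fell and none rose, with a median of -0.14, among them the fibrinogen chains Fgg (-0.24), Fga (-0.20) and Fgb (-0.17). Of 17 haem and iron genes 2 rose and 6 fell, the largest called decrease being that of hepcidin, Hamp (-0.34). Of 10 hypoxia genes none rose and 2 fell, Pgk1 and Bnip3 (-0.20 and -0.19), and Bnip3 lost its call without MASH-1 or MASH-2 (edgeR adjusted p of 0.0546 and 0.0504).

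Markers of other cell types moved unevenly with the class, in a comparison where 3.41% of all tested genes rose and 3.36% fell. Of 15 Kupffer cell genes 5 fell and none rose, with a median log2 change of -0.25, and their summed level was lower in 4 of 4 sections (876 to 1427 CPM in Glul-low, 848 to 1335 in Glul-high spots). With Glul ranked within bins of total UMIs, Marco, Hmox1 (-0.33), Cd5l (-0.13) and Clec4f (-0.15) lost their calls (edgeR adjusted p of 0.0912, 0.157, 0.113 and 0.111), and Slc40a1 was not followed through the alternatives. Clec4f also lost it without MASH-1 or MASH-2 (0.175 and 0.154), and Hmox1 without MAFL-2 or MASH-1 (0.172 and 0.0672). None of 9 monocyte and macrophage genes and none of 6 MHC class II genes passed the test, with medians of 0.00 and 0.11. Of 9 genes of lipid-associated macrophages Lpl alone passed (0.51), which other cells make as well. Of 13 fibroblast and matrix genes 6 rose, with a median of 0.40, led by fibulin-2, Fbln2 (2.02 ± 0.25), and elastin, Eln (1.14 ± 0.34). Of 11 stellate cell genes 4 rose, with a median of 0.26. Without MASH-1 the calls of Col3a1, Col4a1 and Loxl1 were lost in edgeR, that of Loxl1 also without MAFL-2 or MASH-2. Col4a1 lost its call within bins of total UMIs as well, while Fbln2 lost its call in none of these settings. Of the stellate genes, Reln lost its call without MAFL-2, MASH-1 or MASH-2, Hand2 without MASH-1 or MASH-2 and Dcn without MASH-1. Ecm1 kept its call there. Of 5 smooth muscle genes Myl9 and Tpm2 rose (1.05 and 0.55), and Myl9 lost its call without any one of the sections (edgeR adjusted p of 0.0846 to 0.231) and within bins of total UMIs (0.113). Ighm, of B cells, had a log2 change of 1.57 that rests on MASH-2: without that section it was 0.83 (edgeR adjusted p = 0.207).

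Erythroid genes were mostly not past the test. The summed level of 5 erythroid genes was 880 to 2575 CPM in Glul-low, 1272 to 4907 in Glul-high and 2801 ± 1400 (mean ± SD, n = 4) in outer spots. It was higher in Glul-high than in Glul-low spots in 4 of 4 sections. Hbb-bs, the most abundant, was at 475, 360, 1188 and 513 CPM in Glul-low and at 1633, 539, 2300 and 1181 in Glul-high spots, and its log2 change of 1.11 did not pass the test (edgeR adjusted p = 0.14). Alas2 alone of the 5 passed (0.25), and lost its call without MAFL-1, MASH-1 or MASH-2 (edgeR adjusted p of 0.267, 0.271 and 0.196) and within bins of total UMIs (0.11, 0.557). The part of blood in the other differences was not tested. Mif and Thrsp, whose log2 changes were 0.03 ± 0.04 and -0.06 ± 0.04, did not differ between the classes, nor did Cd74 (0.05 ± 0.05), by the same test.

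A finer split of the Cyp2e1-rich spots into 10 equal bins of the Glul share described the shape of these changes. Slc1a2 went from 32.7 ± 10.96 CPM in the lowest bin through 59.0 ± 4.9 in bin 5 to 411 ± 54 in the highest (mean ± SD, n = 4). Rhbg went from 5.87 ± 4.16 through 7.78 ± 2.98 to 63.7 ± 22.2, so most of its rise lay in the upper bins. Slc13a3 had already risen from 7.59 ± 0.33 to 21.9 ± 3.0 by bin 5 and reached 87.4 ± 16.5. Igfbp2 fell from 1099 ± 103 through 967 ± 96 to 559 ± 85. Cyp2f2 (629 ± 164, 599.5 ± 176.6 and 595 ± 168) and Cyp3a11 (3364 ± 760, 3508 ± 768 and 3397 ± 523) stayed at about the same level in the same bins.

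**Figure D3:**
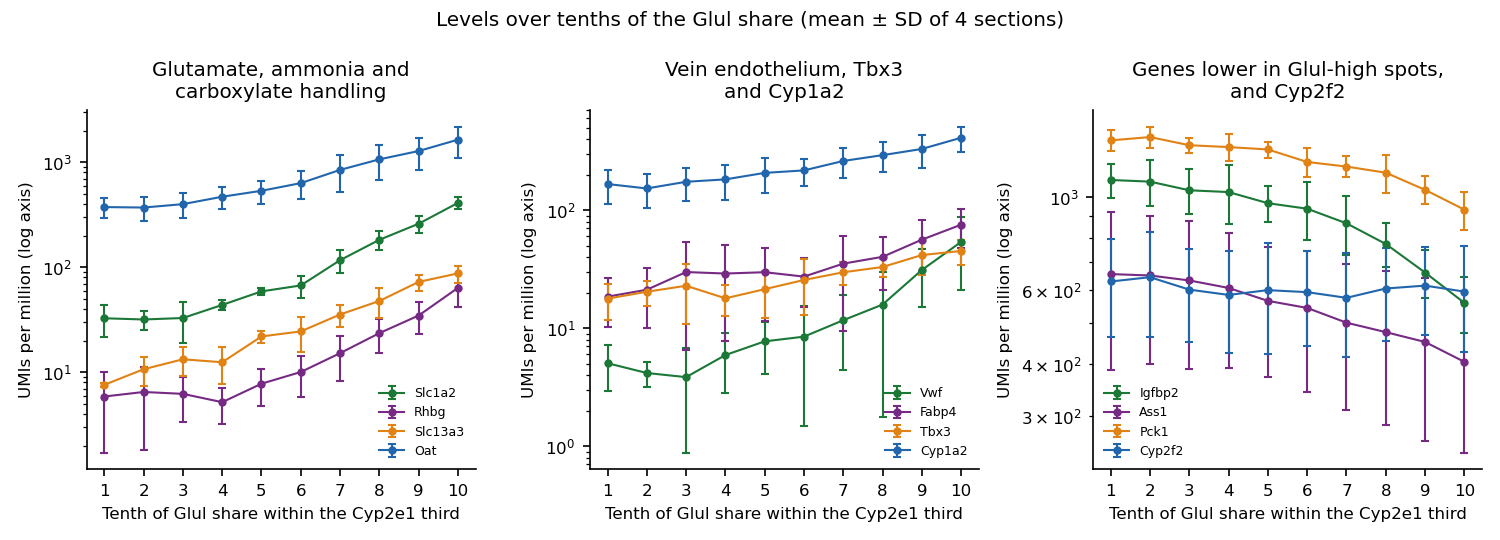
Level of 12 genes (CPM, log axis) over 10 equal bins of the Glul share among Cyp2e1-rich spots, points and bars giving mean ± SD of 4 sections. Slc1a2 rises from 32.7 to 411 and Igfbp2 falls from 1099 to 559 between the lowest and the highest bin, while Cyp2f2 stays between 595 and 629 in the lowest bin, bin 5 and the highest bin.

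The step into the Cyp2e1-rich belt, Glul-low against outer spots, was measured beside the Glul step. In this comparison 1443 of 11111 genes differed (13%), 751 higher (6.76%) and 692 lower (6.23%). The classes were separated by Cyp2e1 and the Glul-low spots also by their low Glul share, while outer spots kept their Glul-rich members. All 26 pericentral genes rose and 17 of 19 periportal genes fell. Among the latter were Aldh1b1 (-1.70), Sds (-1.43), Etnppl (-1.32) and Hsd17b13 (-1.25) as log2 changes. Spp1, which biliary cells and macrophages make, fell by 1.49. Cfd (1.60), Cidea (1.57), Cyp2a5 (1.48), Cyp2c37 (1.45) and Cyp2c38 (1.44) rose most among the genes the naming rule admits, and Cyp2a5 lost its call without MAFL-2, MASH-1 or MASH-2 (edgeR adjusted p of 0.104, 0.0764 and 0.0979). Both steps use the Glul-low spots, in opposite roles, so chance in their sums moves the steps in opposite directions. For a gene that follows Glul, the choice of Glul-low spots can also lower the outer step and raise the difference of the steps. Within one model over all 3 classes, the Glul step minus the outer step differed from 0 for 390 of 11111 genes (3.51%), 178 positive (1.6%) and 212 negative (1.91%). Under library totals the split was 200 positive and 138 negative, and the count was 181 without MASH-1 and 250 without MAFL-1.

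Among the marker genes the difference of the steps was largest for Rhbg and Slc1a2. For Slc1a2 the outer step was 0.42 ± 0.21 and did not pass the test, while the Glul step exceeded it by 2.62 ± 0.38 (log2, SE; edgeR adjusted p = 0.0153). That call was lost in edgeR without MAFL-1 (0.122), MAFL-2 (0.072) or MASH-1 (0.201), and with Glul ranked within bins of total UMIs (2.16, 0.0549). For Rhbg the outer step was 0.22 ± 0.13, again not past the test, and the difference 2.66 ± 0.23 (edgeR adjusted p = 2.39e-12). Slc13a3 rose in both steps, by 0.80 and 2.58, with a difference of 1.76 ± 0.20 (edgeR adjusted p = 1.71e-08). Vwf fell in the outer step by 0.68 ± 0.15 (edgeR adjusted p = 0.000687) and then rose, with a difference of 3.59 ± 0.27. Of 12 central vein endothelium genes 6 had a positive difference past the test and none a negative one.

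Oat, Lgr5, Sp5, Axin2, Tbx3 and Tnfrsf19 rose in both steps without a difference past the test. The outer step of Lgr5, Axin2 and Tnfrsf19 lost its call without MASH-1 (edgeR adjusted p of 0.291, 0.106 and 0.498), and that of Tnfrsf19 also without MASH-2 (0.0606). Oat rose by 1.11 ± 0.15 in the outer step, and the difference of the steps was 0.57 ± 0.26 (edgeR adjusted p = 0.406). For Lgr5 the outer step was 1.198 ± 0.34 and the difference 0.53 ± 0.61 (edgeR adjusted p = 0.784), for Tbx3 1.33 ± 0.10 and -0.30 ± 0.18 (0.488), and for Cyp1a2 1.201 ± 0.12 and -0.17 ± 0.21 (0.82). A difference that misses the threshold does not show that the steps were equal. Among the 26 pericentral genes 8 had a negative difference, such as Cyp3a11 (-0.96), Cyp27a1 (-0.78), Slco1b2 (-0.57) and Por (-0.46), and Slc13a3 alone a positive one. The largest negative differences among genes that the naming rule admits were those of Cidea (-1.52), Aldh3a2 (-1.22), Cidec (-1.11), the tight junction gene Cldn2 (-1.06) and Clstn3 (-1.05). Aldh3a2 and Cidec lost their calls without MASH-2 (edgeR adjusted p of 0.0728 and 0.122), as did Slco1b2 (0.0504). Cidec also lost its call with Glul ranked within bins of total UMIs (-0.92, edgeR adjusted p = 0.151). For 9 of 19 periportal genes the difference was positive, since they fell in the outer step and not further in the Glul step; Ass1 alone had a negative one (-0.37 ± 0.08, edgeR adjusted p = 0.0016).

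**Figure D4:**
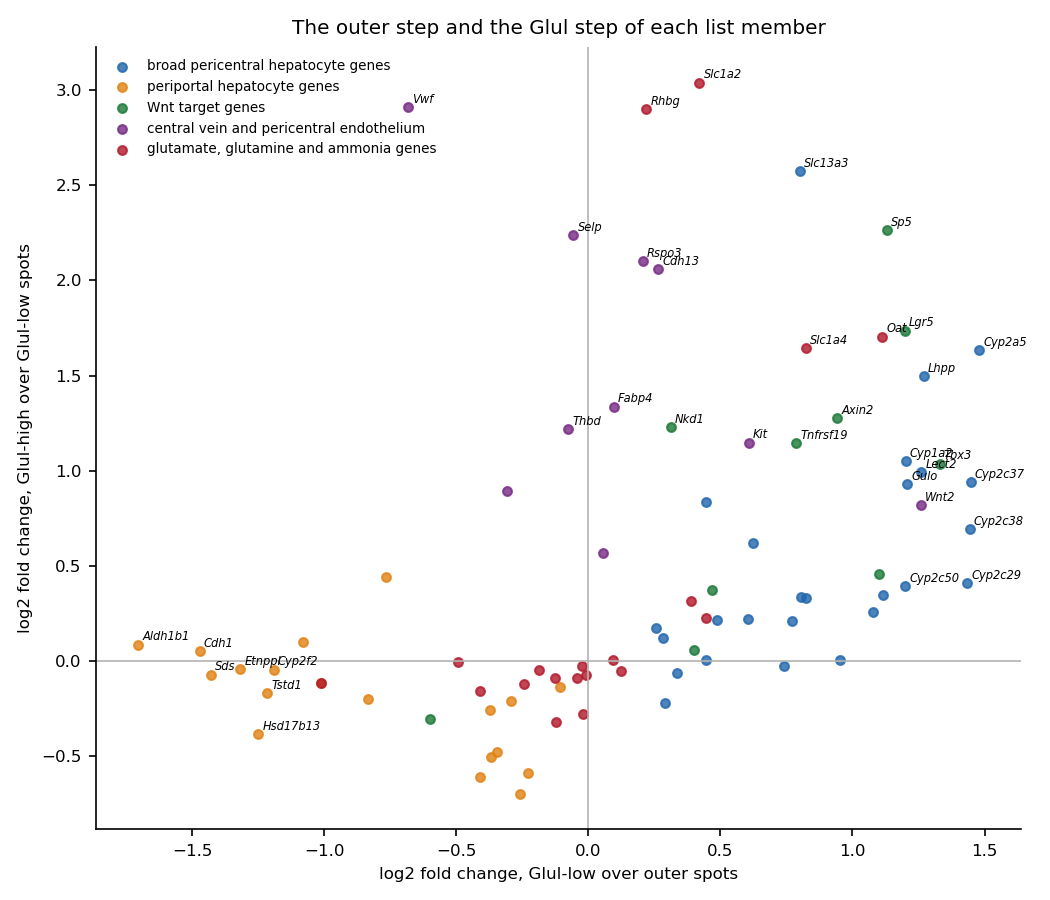
Each point is a member of 1 of 5 gene lists, with the log2 fold change of Glul-low over outer spots on the x axis and of Glul-high over Glul-low spots on the y axis; the axes share the Glul-low spots. Slc1a2 (0.42, 3.04), Rhbg (0.22, 2.90) and Vwf (-0.68, 2.91) lie high with a small or negative outer step, Oat and Lgr5 rise in both, and periportal genes such as Sds (-1.43, -0.07) lie at the left near 0.

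Within Glul-high spots, MASH sections differed from MAFL sections in 55 of 8756 genes (0.628%), 33 higher (0.377%) and 22 lower (0.251%), with 2 sections a group. Under library totals, which move the median of all genes by over 0.1 on the log2 scale (to 0.12), the split was 51 higher and 21 lower of 72. The count rose to 217 without MAFL-2, 170 without MASH-1 and 111 without MASH-2. The ring genes themselves did not pass this test: the log2 change was 0.23 ± 0.19 for Slc1a2, 0.55 ± 0.28 for Oat, 0.20 ± 0.33 for Rhbg and 0.35 ± 0.54 for Lgr5 (SE; edgeR adjusted p of 0.637, 0.434, 0.842 and 0.827). With these errors changes of moderate size would not have been detectable. None of 10 Wnt targets, 9 central vein endothelium genes or 8 urea cycle genes passed. Glul, which chose the spots, stood at 987 and 1280 CPM in MAFL and at 1714 and 2131 in MASH Glul-high spots.

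MHC class II genes were among the largest increases. Of 6 MHC class II genes 4 were higher, H2-Aa by 2.19 ± 0.28, H2-Eb1 by 1.95 ± 0.24, Cd74 by 1.87 ± 0.26 and H2-Ab1 by 1.499 ± 0.22 (log2, SE; edgeR adjusted p of 0.0023, 0.0023, 0.0034 and 0.0056). Cd74, the invariant chain and a receptor of Mif, stood at 81.3 and 71.3 CPM in MAFL-1 and MAFL-2 and at 209 and 401 in MASH-1 and MASH-2. Mif itself was at 234, 254, 285 and 277, a log2 change of 0.10 that did not pass the test. Cidec, a lipid droplet protein, was at 27.1, 10.1, 89.5 and 110.1 (2.34 ± 0.34, edgeR adjusted p = 0.0094), Lcn2, lipocalin-2, at 8.64, 9.58, 30.4 and 69.9 (2.29 ± 0.38, 0.0213) and Serpina7, a thyroxine carrier, at 29.4, 19.6, 113.5 and 93.2 (1.99 ± 0.25, 0.0023). The macrophage genes Tyrobp and Lyz2 were higher as well (1.60 and 1.46). Cidec was the only one of 14 lipid droplet genes that passed, and none of 17 lipogenic genes did. Yet the largest log2 changes in these lists, 4.97 and, for the lipogenic Thrsp, 2.51, were among those that did not pass. A missed threshold thus does not show that the groups were equal in these genes. Of 9 tested genes of lipid-associated macrophages 2 were higher, Gpnmb with 0 and 1 UMIs in the MAFL and 21 and 42 in the MASH sections (edgeR adjusted p = 0.0333), and Mmp12 with 1 and 1 against 28 and 47 (0.0094). Gpnmb lost its call without MASH-2 (0.0534), and both lost it with Glul ranked within bins of total UMIs (0.372 and 0.313). The MAFL and MASH sections did not overlap for any of these called genes. For those named as the highest of this comparison the naming rule required it, so it adds no evidence. With 2 sections a group such a split can also arise by chance. The share of all tested genes that split in this way was not counted, so the split is not read as a trait of these genes.

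The lowest genes in MASH Glul-high spots were the asparaginase Aspg (177, 214, 73.7 and 81.5 CPM; -1.44 ± 0.20, edgeR adjusted p = 0.0034) and the complement gene C8b (243, 249, 91.2 and 107; -1.43 ± 0.19, 0.0028). They were followed by Hal (-1.39 ± 0.25, 0.0278), the aminotransferase Got1 (-1.26 ± 0.26, 0.0475) and Dnajb12 (-1.24 ± 0.24, 0.0354). Hal lost its call without MASH-1 (edgeR adjusted p = 0.0805), Got1 without MAFL-2 or MASH-1 (0.0923 and 0.0683) and Dnajb12 without MAFL-1 (0.0617). With Glul ranked within bins of total UMIs, the calls of Hal and Got1 were lost as well (edgeR adjusted p of 0.101 and 0.0725). None of these named changes was shown to be particular to Glul-high spots: their interactions with the Glul class had edgeR adjusted p-values of 0.0527 to 0.9985.

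The interaction itself, the class difference in MASH minus that in MAFL sections, passed the test for 15 of 10889 genes (0.138%), 8 positive (0.0735%) and 7 negative (0.0643%). DESeq2 called 1 gene, which was not among them, and so kept 0 of the 15. At an unadjusted p under 0.05 there were 655 in edgeR and 26 in DESeq2. The count was 9 without MAFL-2 and 23 without MASH-1, and with RLE size factors 8 were positive and 13 negative. Slc1a2 and Oat were among the positive ones. The log2 ratio of Glul-high to Glul-low spots for Slc1a2 was 2.92 and 2.67 in the MAFL and 3.19 and 3.51 in the MASH sections, an interaction of 0.52 ± 0.11 (SE, edgeR adjusted p = 0.0016). For Oat it was 1.34, 1.60, 1.90 and 2.05, an interaction of 0.48 ± 0.06 (7.26e-11). Both MASH values exceed both MAFL values for either gene. The Oat call was lost when Glul was ranked within bins of total UMIs (edgeR adjusted p = 0.944), and that of Slc1a2 in the same setting (0.644) and without MAFL-2 (0.732) or MASH-2 (0.149).

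Rnase4 and Ang, secreted ribonucleases that share a promoter region, had interactions of 0.35 ± 0.06 and 0.34 ± 0.07, and Cyp2c29 one of 0.35 ± 0.07. Ang lost its call without MAFL-1, MAFL-2 or MASH-1 (edgeR adjusted p of 0.224, 0.185 and 0.154), and Cyp2c29 without MAFL-2 (0.313) or MASH-2 (0.18, 0.666). The call of Cyp2c29 was also lost with Glul ranked within bins of total UMIs (0.25, edgeR adjusted p = 0.432). Rnase4 was at 0.15, 0.16, 0.55 and 0.49 as a log2 ratio and kept its call in all alternatives run in edgeR and limma. Cps1 and Arg1 fell further in MASH: the log2 ratios were -0.52, -0.45, -0.96 and -0.73 for Cps1 and -0.41, -0.33, -0.78 and -0.76 for Arg1, with interactions of -0.39 ± 0.06 and -0.42 ± 0.07 (edgeR adjusted p of 3.61e-06 and 5.94e-06). Both calls were lost without MAFL-2 (0.11 and 0.246). Cyp2c38 (-0.88 ± 0.19), the complement factor Cfd (-0.66 ± 0.12) and the acute phase gene Orm2 (-0.60 ± 0.14) had the most negative values, and each lost its call without MAFL-2 (edgeR adjusted p of 0.611, 0.867 and 0.867). Cfd also lost it without MASH-1 (0.934) and Orm2 without MASH-2 (0.752).

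The groups also differed in what defined the classes. A Glul-high spot held a median of 12 and 18.5 Glul UMIs in the MAFL and 30 and 28 in the MASH sections. The part that this difference in the separation of the classes has in the interactions was not tested.

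**Figure D5:**
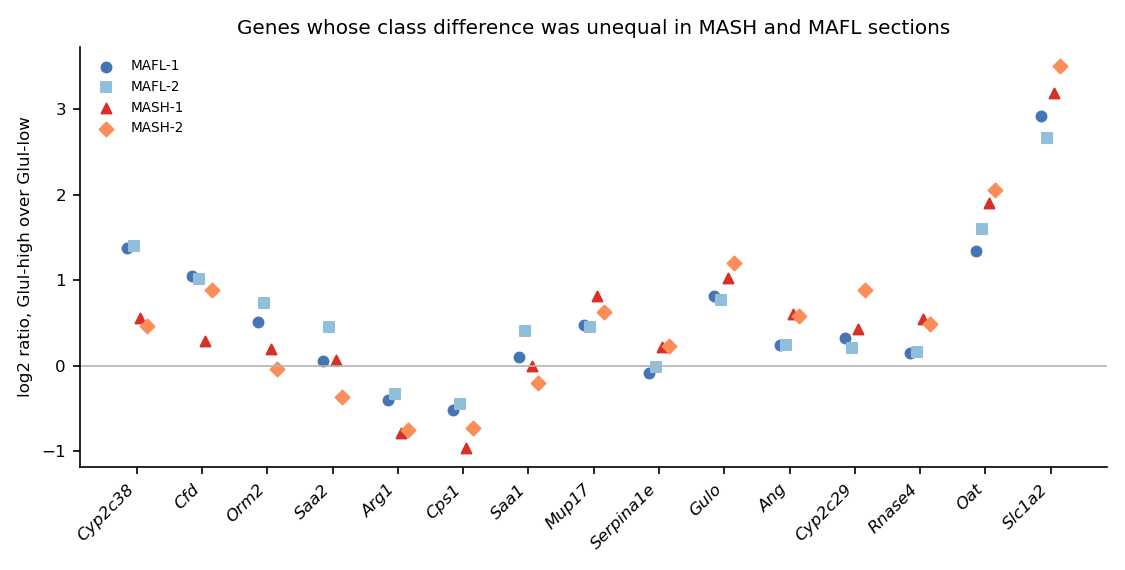
Log2 ratio of Glul-high to Glul-low spots in each section for the 15 genes with an interaction past the adjusted p of 0.05, MAFL in blue and MASH in red. For Oat and Slc1a2 both MASH sections lie above both MAFL sections, and for Cps1 and Arg1 below them.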

How the data were processed

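The deposited matrices hold UMI counts per gene and spot. Per the file headers they come from Space Ranger 1.2.2, and the submitters' processing notes name mm10. Of 31253 features, 91 share a symbol with another. Spots under 500 UMIs (6 spots) were left out. Counts of a class were summed per section and tested with edgeR 4.0.16 in R 4.3.3 (TMM scaling, filterByExpr, glmQLFit, glmQLFTest) with the section as a block, except that MASH against MAFL was fitted on Glul-high sums with 2 sections a group. Glul and Cyp2e1 were left out of every test. P-values were Benjamini-Hochberg adjusted over all genes tested. With 4 sections, an exact permutation test of signs for a single value cannot go below p = 0.125, and none is reported.

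Genes were named as the 12 highest and 12 lowest called genes with a mean of at least 20 CPM in the class comparison, the 5 highest and 5 lowest in the others, and up to 4 called members per list. Other genes, named to complete a count or singled out, were chosen after their values were seen. The spot classes and the 38 gene lists were chosen with earlier results of these data known. On data simulated for the class comparison, over 10019 genes, edgeR called 91 of 98 tested genes set to a 2-fold and 97 of 97 set to a 4-fold change, and 5.53% of its calls were false. For MASH against MAFL, over 8481 genes, it called 34 of 92 and 84 of 91, and 12.6% of its calls were false. The interaction gave 50 of 99 and 81 of 96, with 2.96% of calls false. The outer step gave 97 of 99 and 95 of 95 (6.8% false), and the difference of the steps 62 of 96 and 91 of 98 (8.38% false).

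The alternatives were DESeq2 1.42.0, limma 3.58.1 (prior count 2), RLE or library-total scaling, other filters, other class limits, Glul ranked within 5 bins of UMIs or of the Cyp2e1 share, spots thinned to 5000 UMIs, no block and each section left out. Python 3.11.15 with numpy, scipy and pandas summed the counts and matched promoters by gene symbol.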

Additional observations from a re-analysis of the deposited data

Results flagged for a closer look

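For 15 genes the difference between Glul-high and Glul-low spots itself differed between MASH and MAFL sections by the interaction term of edgeR's quasi-likelihood test. Oat had an interaction (MASH minus MAFL, log2) of 0.48 and Slc1a2 one of 0.52. Among secreted ribonucleases the interaction of Rnase4 was 0.35 and that of Ang 0.34, and these neighbouring genes may share reads. Gulo had 0.30, with mean log2 ratios of 0.79 in MAFL and 1.11 in MASH sections, and Cyp2c29 had 0.35. The Gulo call was lost without MAFL-1, MAFL-2 or MASH-2 (edgeR adjusted p of 0.405, 0.697 and 0.472).

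Mup17, of the major urinary proteins, had an interaction of 0.25, and Serpina1e, an α1-antitrypsin gene, one of 0.27. Serpina1e went from mean log2 ratios of -0.05 in MAFL to 0.22 in MASH sections. Both belong to families of near-identical copies, so their counts are uncertain.

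Negative values were found for the urea cycle genes Cps1 (-0.39) and Arg1 (-0.42), for Cyp2c38 (-0.88) and for Cfd (-0.66). The acute phase genes Orm2 (-0.60), Saa2 (-0.46) and Saa1 (-0.38) were also negative. Saa1 had mean log2 ratios of 0.25 in MAFL and -0.10 in MASH sections, and Saa2 0.26 and -0.15. Without MAFL-2 the interaction was -0.19 for Saa1 and -0.17 for Saa2 (edgeR adjusted p of 0.883 and 0.967), and both calls were also lost without MASH-2 (0.223 and 0.698). With Glul ranked within bins of total UMIs, the calls of Orm2 (-0.43) and Saa1 (-0.33) were lost too (edgeR adjusted p of 0.313 and 0.942). Saa1 and Saa2 are near-identical copies and may share reads.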

How the results depend on the processing

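Of the 692 genes that differed between Glul-high and Glul-low spots, the count was 240 by DESeq2, 165 in spots thinned to 5000 UMIs, 16 with no section block and 406 to 602 with a section left out. The interaction count (15) was 1 by DESeq2, 9 by limma, 8 with the top 10% of spots, 3 after thinning and 9 to 23 with a section left out. The count for MASH against MAFL in Glul-high spots (55) was 306 with no filter on low counts, 33 at a mean of at least 20 CPM, 103 with Glul ranked within bins of UMIs, 111 within bins of the Cyp2e1 share and 70 to 217 with a section left out. With the replicate number as a block it was 253, and with the crossed replicate block, chosen after seeing the data, 357. Deviations of same-numbered sections correlated at -0.13 over 4323 genes, so the numbers are not shown to pair the sections. The outer step (1443) gave 931 by DESeq2, 604 by limma, 871 against the bottom 20%, 567 after thinning and 965 to 1242 with a section left out. The difference of the steps (390) gave 258, 203, 251 at 20 CPM, 121 after thinning and 181 to 337 with a section left out, the first 2 by DESeq2 and limma. Thinning lowers the counts by construction, and the cause of the other changes was not tested. The interaction of Hba-a2 (-0.19) turned to 0.49 without MAFL-1 and was -0.70 at the other end of the range with a section left out. With 2 sections a group and 1 to 32 UMIs for scarce genes such as Lgr5 and Wnt2, depth limits what can be detected.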
